A study of Mus musculus with 15 samples.

Results

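The SMADs and their intracellular feedback regulators were followed by RNA sequencing of mouse endometrial epithelial organoids. They comprised 10 of the 16729 genes in the expression matrix: *Smad1*, *Smad2*, *Smad3*, *Smad4*, *Smad5*, *Smad6*, *Smad7*, *Smurf1*, *Smurf2* and *Skil*. Members were picked by gene symbol and matched through the Ensembl identifier. The rule sets no limit on measured values, although earlier results of these data were known when the list was made. These organoids are cultures of isolated uterine epithelium kept in a basement membrane gel. Control + vehicle organoids (n = 3) came from female Smad2flox/flox; Smad3flox/flox mice and received DMSO, and control + A83-01 organoids (n = 4) came from the same genotype and received 500 nM A83-01, an inhibitor of the receptor kinases ALK4, ALK5 and ALK7. *Smad2/3* cKO organoids (n = 4, labeled as vehicle) and *Smad2/3* cKO + A83-01 organoids (n = 4) carried the same floxed alleles together with one Ltfcre allele. Lactoferrin-iCre is active in the uterine epithelium of adult mice, and per the methods it was induced with estradiol at weaning. The reporting summary of the study gives mice of a mixed genetic background. It gives adult mice of 6 to 8 weeks where no other age is named, and none is named for the organoids. The medium of all groups held EGF, FGF10, HGF, WNT3a, R-spondin and Noggin, an antagonist of BMP ligands.

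TGFβ and activin receptors phosphorylate SMAD2 and SMAD3, whereas BMP receptors phosphorylate SMAD1 and SMAD5. These receptor-regulated SMADs form complexes with the common partner SMAD4 and move to the nucleus to regulate transcription. The inhibitory SMADs SMAD6 and SMAD7 block receptors, the ubiquitin ligases SMURF1 and SMURF2 mark receptors and SMADs for degradation, and SKIL (SnoN) is a corepressor of SMAD target genes. *Smad7*, *Smad6* and *Skil* are themselves well-known targets of the pathway, so that their products close negative feedback loops.

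The libraries summed to 20241771 to 24423127 normalized counts. All 8 epithelial markers had a mean of at least 10 in every group, with summed levels of 125465 to 321768, whereas the 2 endothelial markers measured summed to at most 27.6. Marker levels moved with the groups. The epithelial sum ranged over 248909 to 321768 for control + vehicle and 158616 to 275292 for control + A83-01. It ranged over 126219 to 236483 for *Smad2/3* cKO and 125465 to 193166 for *Smad2/3* cKO + A83-01. This sum is weighted toward abundant keratins. From control + vehicle to *Smad2/3* cKO, mean *Krt7* went from 100972 to 63041.1, *Krt8* from 47559.5 to 17779.6 and *Krt19* from 34245.5 to 10479.4. Mean *Epcam* was 23268.1 and 24265.2 in these groups, and mean *Cldn3* was 5932.48 and 5081.45. With deletion 7 of the 8 epithelial markers had a log2 fold change below 0, all but *Epcam*. In the group order of the epithelial sum, the 4 leukocyte markers measured summed to 1261 to 2896, 3402 to 8757, 2116 to 5795 and 4032 to 7970. This was mostly *Cd68*, and *Adgre1* was listed at 0 in 7 of the 15 libraries. The 3 smooth muscle markers summed to 55.1 to 192 in control + vehicle and to 5.75 to 43.5 in the other groups, and the 7 stromal markers to 31.8 to 201 and to 4.79 to 136, with *Col1a1* at 0 in 9 libraries and *Lum* in 12. The smooth muscle sum was mostly *Acta2*, as *Des* and *Cnn1* reached at most 9.24 and 12.2 in any library. With deletion 1 of 8 epithelial and 1 of 1 smooth muscle markers tested fell and 1 of 4 leukocyte markers rose, where 3.30% of all genes fell and 4.08% rose, while none of the lists had a marker past the test with A83-01 in control organoids. At a limma adjusted p below 0.05, *Ptprc* (7.05-fold, adjusted p = 0.0190) and *Cd68* (2.83-fold, adjusted p = 0.0340) were higher with A83-01, where 3.64% of all genes were higher. *Acta2* (0.185-fold, adjusted p = 0.0308) was lower, where 3.70% were lower. With deletion *Krt8*, *Krt19* and *Col1a2* were also lower at this threshold, where 9.17% were. The part of these markers in the results on SMADs was not tested, and in bulk organoids fewer cells of a type and less RNA per cell cannot be told apart. The first replicate of *Smad2/3* cKO carries the same number in its sample label as the first replicates of both control groups, although it differs from them in genotype.

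The start regions of *Smurf1* and *Smad6* are shown because both genes stood lower in all 12 libraries with A83-01 or deletion than in each of the 3 control + vehicle libraries. *Smad7* met the same criterion, but no window of it was examined. The 250 bases before each start are from RefSeq (build GRCm38.p6), read along the gene's strand at chr5:144965831-144966080 (minus strand) for *Smurf1* and chr9:64022060-64022309 (minus strand) for *Smad6*. Capitals mark CAGAC or its reverse complement GTCTG, the element bound by SMAD3 and SMAD4, and GGCGC or GCGCC, a core of the GC-rich SMAD element.
Smurf1: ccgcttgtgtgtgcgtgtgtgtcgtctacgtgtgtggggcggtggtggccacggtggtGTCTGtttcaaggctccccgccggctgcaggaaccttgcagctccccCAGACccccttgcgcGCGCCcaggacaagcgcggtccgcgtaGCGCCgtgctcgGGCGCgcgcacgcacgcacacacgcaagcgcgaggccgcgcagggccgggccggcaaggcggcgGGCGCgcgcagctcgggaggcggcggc
Smad6: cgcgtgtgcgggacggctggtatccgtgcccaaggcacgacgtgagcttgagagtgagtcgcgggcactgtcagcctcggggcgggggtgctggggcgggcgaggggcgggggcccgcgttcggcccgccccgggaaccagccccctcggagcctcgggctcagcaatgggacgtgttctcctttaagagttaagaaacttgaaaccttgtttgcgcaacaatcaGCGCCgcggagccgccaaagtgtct
The *Smurf1* window held 2 matches to CAGAC or GTCTG and 4 to GGCGC or GCGCC. The *Smad6* window held 0 and 1. Of 32851 promoter windows of this length, 42.2% held CAGAC or GTCTG and 10520 windows held GGCGC or GCGCC. The longer element GTCTAGAC was present in 0.167% of the windows and in none of those of *Smad1*, *Smad3*, *Smad5*, *Smad6*, *Smurf1* and *Smurf2*, the 6 members whose windows were examined. Windows of *Smad2*, *Smad4*, *Smad7* and *Skil* were not examined. The *Smurf2* window held 1 match to CAGAC or GTCTG, those of *Smad1* and *Smad3* held 0, and the 3 start sites of *Smad5* held 0, 0 and 1. For GGCGC or GCGCC the counts were 6 in *Smurf2*, more than in *Smurf1*, 3 in *Smad1*, 0 in *Smad3* and 1, 3 and 1 in *Smad5*.

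A83-01 in control organoids lowered 1 of the 10 members, *Smad7*, to 0.0725 of its control + vehicle level. Members passed the test at a limma adjusted p below 0.01 together with a fold change above 1.4 or below its inverse. Of the 13009 genes tested 2.27% passed and 1.08% passed as lower. Deletion of *Smad2* and *Smad3* lowered 1 of the 10, *Smurf1*, to 0.543 of its level, where 7.38% of 13149 genes passed and 3.30% passed as lower. No member rose in either comparison. With A83-01, 9 of 10 members had a log2 fold change below 0 (median −0.45, against −0.02 and 51.2% below 0 over all genes), and with deletion 9 of 10 (median −0.42, against 0.00 and 49.8% below 0). These comparisons share their control + vehicle libraries. At an adjusted p below 0.05, *Smad6*, *Smad7* and *Smurf1* were lower with A83-01, where 3.70% of all genes were lower, and *Smad6*, *Smad7*, *Smurf1* and *Skil* were lower with deletion, where 9.17% were.

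**Figure D1:**
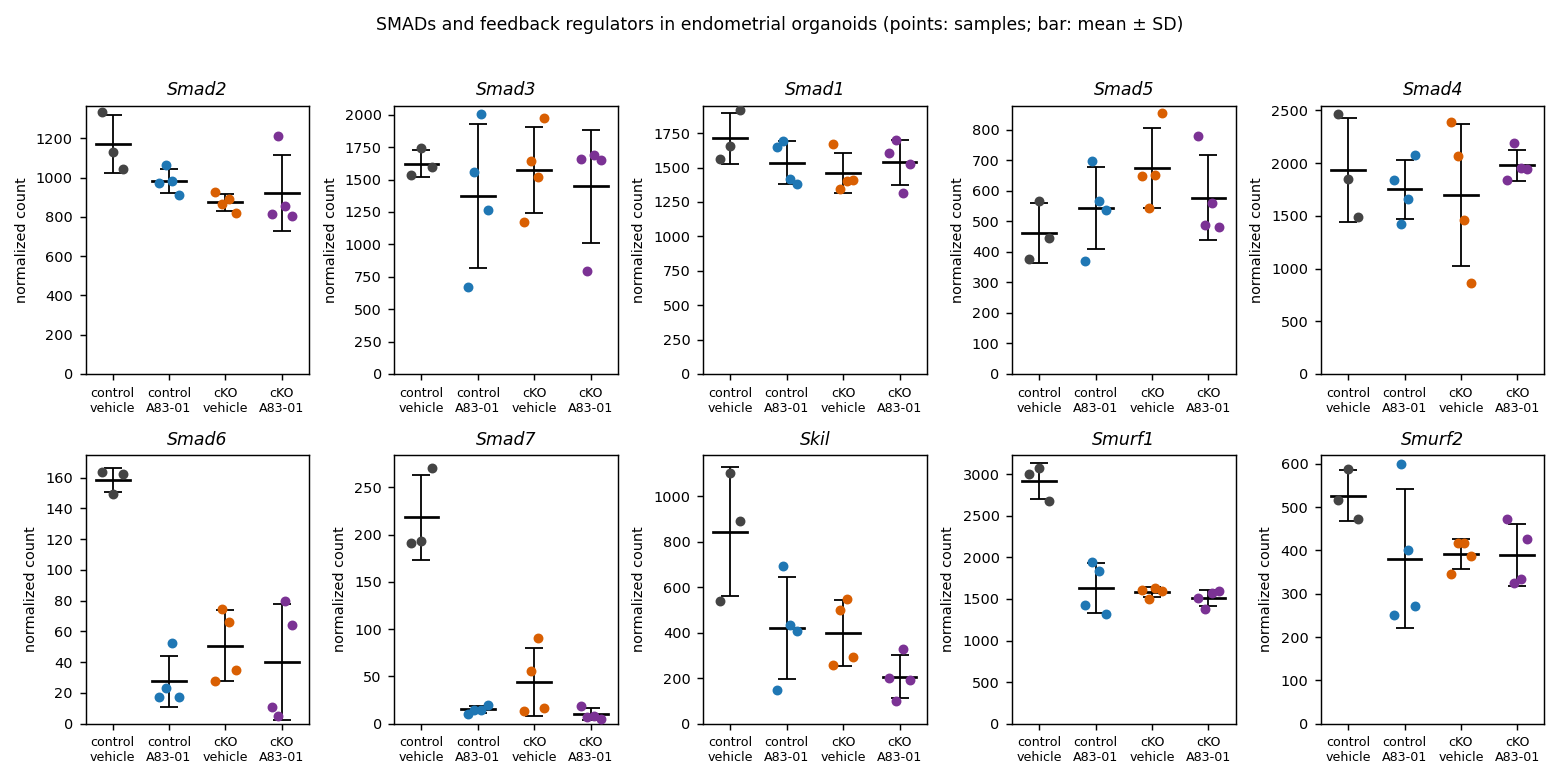
Normalized counts of the 10 members (vertical axes, linear from 0) in each library of the 4 groups, with points for single libraries and black bars for the mean ± SD (n = 3, 4, 4 and 4). *Smad6*, *Smad7* and *Smurf1* lie lower in all 12 libraries with A83-01 or deletion than in the 3 control + vehicle libraries, whereas *Smad3*, *Smad4* and *Smad5* overlap between all groups.

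*Smad2* and *Smad3*, which encode the SMADs of the TGFβ and activin branch, are the genes that the cKO was designed to delete. *Smad2* measured 1335, 1132 and 1045 normalized counts in control + vehicle and 924, 863, 892 and 821 in *Smad2/3* cKO. All 4 *Smad2/3* cKO libraries were thus lower than all controls, but the difference of −0.41 on the log2 scale (SE 0.14) did not pass the test (limma adjusted p = 0.0656). *Smad3* measured 1532, 1741 and 1599 in control + vehicle and 1170, 1640, 1516 and 1977 in *Smad2/3* cKO. These groups overlapped, with a log2 fold change of −0.07 (95% interval −0.47 to 0.34, adjusted p = 0.827). The values count reads of the whole gene, so they do not separate the floxed exons from the rest of the transcript and do not check the deletion.

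After A83-01 in control organoids, *Smad2* was at 970, 1062, 984 and 912 normalized counts, overlapping control + vehicle (log2 fold change −0.25, 95% interval −0.60 to 0.11, adjusted p = 0.410). *Smad3* was at 669, 1556, 2003 and 1265, which spread on both sides of the controls (−0.35, 95% interval −1.09 to 0.39, adjusted p = 0.602). *Smad2/3* cKO + A83-01 organoids had *Smad2* at 813, 1211, 854 and 804 and *Smad3* at 1659, 797, 1689 and 1648. Replicate 2 of this group was the highest for *Smad2* and the lowest for *Smad3*.

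*Smad1* and *Smad5* encode the SMADs of the BMP branch. *Smad1* was at 1563, 1655 and 1919 normalized counts in control + vehicle and at 1345 to 1672 in *Smad2/3* cKO, with overlap (log2 fold change −0.23, 95% interval −0.54 to 0.07, adjusted p = 0.265). With A83-01 it was at 1381 to 1696 in control and 1318 to 1697 in *Smad2/3* cKO organoids. *Smad1* thus varied little, between 1318 and 1919 over all 15 libraries.

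*Smad5* was the member with a log2 fold change above 0 in both comparisons with control + vehicle. It measured 375, 568 and 445 normalized counts in control + vehicle and 649, 545, 651 and 855 in *Smad2/3* cKO, where 3 of 4 libraries exceeded all controls. The log2 fold change of 0.55 (95% interval 0.07 to 1.02) did not pass the test (adjusted p = 0.101). Control organoids with A83-01 had it at 370, 697, 567 and 537 (0.21, 95% interval −0.37 to 0.80, adjusted p = 0.691).

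*Smad4*, the common partner of both branches, showed wide spread within the groups. It measured 2463, 1848 and 1492 normalized counts in control + vehicle, 1425 to 2081 in control + A83-01 and 864 to 2389 in *Smad2/3* cKO. The groups overlapped throughout, and the log2 fold changes were −0.13 with A83-01 (95% interval −0.60 to 0.35, adjusted p = 0.784) and −0.26 with deletion (95% interval −1.01 to 0.49, adjusted p = 0.619). The lowest value, 864, was that of *Smad2/3* cKO replicate 4.

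At the RNA level, the branches were set side by side as the share of *Smad2* and *Smad3* in the summed level of *Smad1*, *Smad2*, *Smad3* and *Smad5*. For this share each normalized count was divided by the kilobases of exon of its gene. This share was 56.0% ± 3.1 (SD, n = 3) in control + vehicle, 52.2% ± 7.6 (n = 4) in control + A83-01, 54.1% ± 4.8 (n = 4) in *Smad2/3* cKO and 52.9% ± 5.6 (n = 4) in *Smad2/3* cKO + A83-01. The groups differed by less than the spread within control + A83-01. Within the BMP branch, *Smad5* made up 18.6% ± 3.4 of *Smad1* and *Smad5* per kilobase in control + vehicle (range 16.4% to 22.4%) and 28.03% ± 4.13 in *Smad2/3* cKO (24.7% to 33.8%), without overlap. Between these groups 30.8% of all genes tested had no overlap, whereas the counts of *Smad5* itself overlapped. *Smad5* made up 22.9% ± 4.7 in control + A83-01 and 23.99% ± 4.46 in *Smad2/3* cKO + A83-01, whose ranges overlapped control + vehicle. *Smad2* per kilobase was below *Smad3* in all 15 libraries, at 0.262 to 0.959 of its level.

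*Smad7*, the inhibitory SMAD that acts on both branches, fell with A83-01 by more than any other member on the log2 scale. It measured 191, 194 and 270 normalized counts in control + vehicle and 10.4, 14.8, 14.9 and 20.2 in control + A83-01. The highest value with A83-01 was far below the lowest control, and the log2 fold change was −3.79 (SE 0.39, 95% interval −4.66 to −2.91, adjusted p = 0.00132). The call was lost without control + vehicle replicate 1 (adjusted p = 0.0108) or replicate 2 (adjusted p = 0.0118), at log2 fold changes of −3.87 and −3.86.

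Without the inhibitor, *Smad2/3* cKO organoids had *Smad7* at 13.8, 55.5, 90.4 and 16.5 normalized counts, all below the controls. Replicates 1 and 4 lay within the range of control + A83-01 and replicates 2 and 3 above it. The log2 fold change was −2.67 (SE 0.63, adjusted p = 0.0196), and without replicate 3 it was −3.15 and passed the test (adjusted p = 0.00655). Without replicate 1, whose label number recurs in control libraries, it was −2.27 (adjusted p = 0.0359).

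*Smad7* measured 19.03, 6.80, 8.60 and 4.70 normalized counts in *Smad2/3* cKO + A83-01, the lowest mean of the 4 groups. Compared with *Smad2/3* cKO, the log2 fold change was −1.82 (95% interval −3.38 to −0.27), with overlap, and it did not pass the test (adjusted p = 0.994, unadjusted p = 0.0258). Compared with control + A83-01 it was −0.71 (95% interval −1.96 to 0.55, adjusted p = 0.768). At a few reads per library these levels are imprecise.

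*Smad6*, the inhibitory SMAD with a preference for the BMP branch, was below all controls in each of the 12 other libraries but did not pass the test at an adjusted p of 0.01. It measured 164, 149 and 162 normalized counts in control + vehicle and 17.6, 22.9, 52.3 and 17.6 in control + A83-01. The log2 fold change was −2.63 (SE 0.45, 95% interval −3.65 to −1.61, adjusted p = 0.0108). Replicate 3 was the highest with A83-01, and without it the log2 fold change was −2.98 and passed the test (adjusted p = 0.00720).

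*Smad2/3* cKO organoids had *Smad6* at 27.5, 74.3, 66.2 and 34.9 normalized counts (log2 fold change −1.74, SE 0.40, adjusted p = 0.0177). As for *Smad7*, replicates 2 and 3 were higher than replicates 1 and 4. After A83-01 the *Smad2/3* cKO values were 10.9, 5.12, 79.9 and 64.1, a range that held all 4 *Smad2/3* cKO values. The log2 fold change between these groups was −0.94 with a wide interval of −2.76 to 0.88 (adjusted p = 0.994).

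*Skil*, the corepressor, measured 540, 1102 and 890 normalized counts in control + vehicle and 148, 692, 435 and 409 in control + A83-01. Of these 4 libraries 3 were below all controls, and the log2 fold change of −1.14 (95% interval −2.23 to −0.05) did not pass the test (adjusted p = 0.208). *Skil* was lower with A83-01 in each of the 3 pairs of libraries that share a label number, and with the replicate block the log2 fold change was −1.19 (adjusted p = 0.0316), below 0.05 but not 0.01. The *Smad2/3* cKO values were 256, 498, 546 and 294, with replicate 3 just above the lowest control (−1.10, 95% interval −1.85 to −0.34, adjusted p = 0.0497). Adding A83-01 to *Smad2/3* cKO gave 201, 100, 330 and 192. The log2 fold change between both cKO groups was −0.996 (95% interval −1.83 to −0.16), and it did not pass the test (adjusted p = 0.994, unadjusted p = 0.0240).

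**Figure D2:**
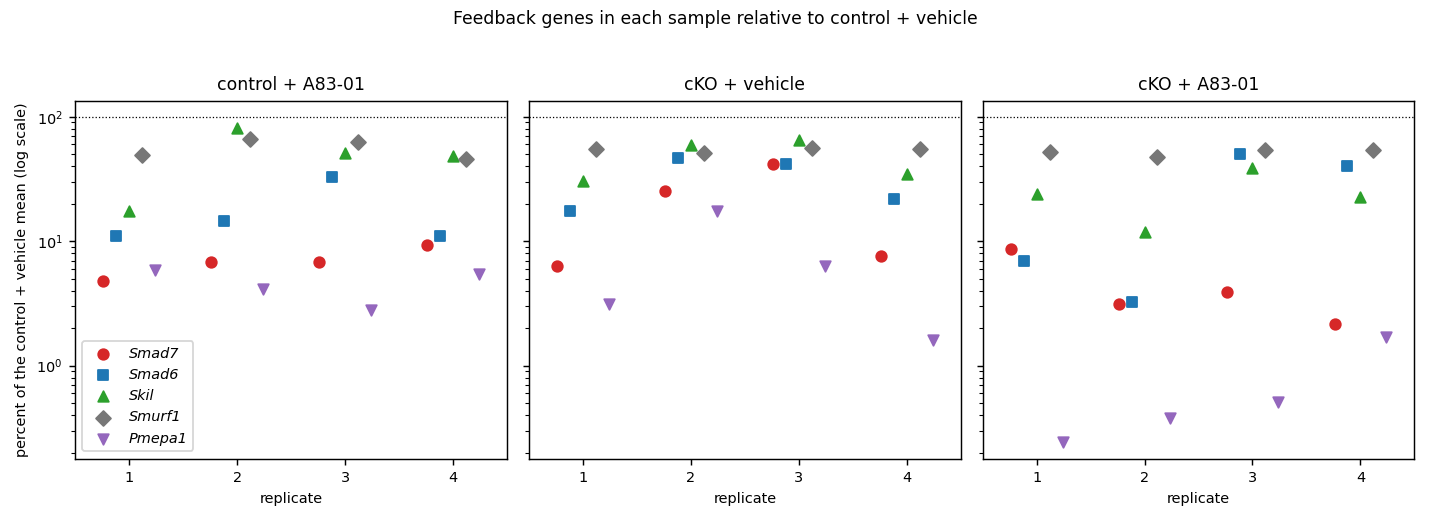
Levels of *Smad7*, *Smad6*, *Skil*, *Smurf1* and *Pmepa1* in each library as a percent of the control + vehicle mean (vertical axis, log scale; the dotted line is 100%), by replicate in the 3 other groups; replicate numbers do not pair the libraries between genotypes. *Smurf1* lies between 45.4% and 66.5% in all 12 libraries, whereas *Smad7* in *Smad2/3* cKO ranges from 6.31% to 41.4%.

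The plot by replicate shows that the libraries of *Smad2/3* cKO organoids differed among themselves for the feedback genes. *Smad7* stood at 6.31%, 25.4%, 41.4% and 7.57% of the control + vehicle mean in replicates 1 to 4. *Skil* stood at 30.3%, 59.0%, 64.7% and 34.8%, and *Smad6* at 17.4%, 46.9%, 41.8% and 22.0%. For all of these genes replicates 2 and 3 were higher than replicates 1 and 4. In control + A83-01 *Smad7* spanned 4.77% to 9.26%, a smaller ratio of highest to lowest, whereas *Skil* spanned 17.5% to 82.0% and *Smad6* 11.1% to 33.0%, larger ratios than in *Smad2/3* cKO.

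*Smurf1*, the ubiquitin ligase first described for SMAD1 and SMAD5, fell with deletion. It measured 3004, 3080 and 2673 normalized counts in control + vehicle and 1602, 1504, 1627 and 1601 in *Smad2/3* cKO. The *Smad2/3* cKO libraries were close to one another, and the log2 fold change was −0.88 (SE 0.11, 95% interval −1.14 to −0.62, adjusted p = 0.00156). The call was lost without control + vehicle replicate 1 (log2 fold change −0.86, adjusted p = 0.0102) and was kept without *Smad2/3* cKO replicate 1 (−0.89, adjusted p = 0.00541).

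A83-01 left *Smurf1* in control organoids at 1432, 1941, 1836 and 1325 normalized counts, all below the controls (log2 fold change −0.85, SE 0.18), and it did not pass the test (adjusted p = 0.0235). The *Smad2/3* cKO + A83-01 libraries measured 1508, 1384, 1569 and 1590, which overlapped *Smad2/3* cKO. The log2 fold change between both cKO groups was −0.07, with a narrow interval of −0.30 to 0.16. The effect of A83-01 differed between genotypes by 0.79 on the log2 scale (95% interval 0.39 to 1.18) which did not pass at 0.01 (adjusted p = 0.0479).

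*Smurf2*, the related ligase that also acts with SMAD7 on TGFβ receptors, measured 517, 589 and 473 normalized counts in control + vehicle. The *Smad2/3* cKO libraries measured 345, 416, 418 and 387, all below the controls, and the log2 fold change of −0.42 (95% interval −0.80 to −0.05) did not pass the test (adjusted p = 0.110). With the inhibitor, control organoids had 251, 600, 401 and 271, of which replicate 2 exceeded all controls (−0.55, 95% interval −1.26 to 0.16, adjusted p = 0.354).

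Libraries did not overlap for 3 of 10 members with A83-01 in control organoids (*Smad6*, *Smad7* and *Smurf1*) and for 5 of 10 with deletion (*Smad2*, *Smad6*, *Smad7*, *Smurf1* and *Smurf2*), all lower. Over all genes tested, 11.5% and 16.0% were lower without overlap. *Smad6*, *Smad7* and *Smurf1* were lower in each of the 12 other libraries than in any control + vehicle library, which held for 7.69% of 13066 genes. *Smad2*, *Smurf2* and *Skil* were lower in 10 of the 12.

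A83-01 in *Smad2/3* cKO organoids changed 0 of 10 members by limma, as it changed 0 of 12998 genes (0%). At an unadjusted p below 0.05 there were 2 members, *Smad7* and *Skil*, against 4.26% of all genes. No member's libraries were separate, against 2.90% of genes. Between *Smad2/3* cKO + A83-01 and control + A83-01 no member passed the test or an unadjusted p of 0.05, against 0.0232% and 9.52% of 12915 genes, and none was separate, against 6.12%. The interval for *Smad6* in this comparison ran from −1.93 to 1.83, an interval that includes large differences either way.

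*Smad2/3* cKO was also compared directly with control + A83-01 (a floxed genotype with Cre against the receptor inhibitor). No member passed the test (0% of 12980 genes did) or an unadjusted p of 0.05 (6.36% of genes did), and none was separate (3.45% of genes were). *Smurf1* differed by −0.03 on the log2 scale (95% interval −0.37 to 0.32), whereas *Smad7* was 1.12 higher in *Smad2/3* cKO (95% interval −0.32 to 2.55, adjusted p = 0.725) and *Smad6* 0.89 higher (−0.24 to 2.02, adjusted p = 0.723). *Skil* differed by 0.04 (−0.95 to 1.03). The contrast of the A83-01 effect between genotypes passed for no member (0.551% of 13066 genes passed), with 2 members at an unadjusted p below 0.05 (14.3% of genes). For *Smad7* it came to 1.96 (95% interval 0.19 to 3.73, adjusted p = 0.288).

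**Figure D3:**
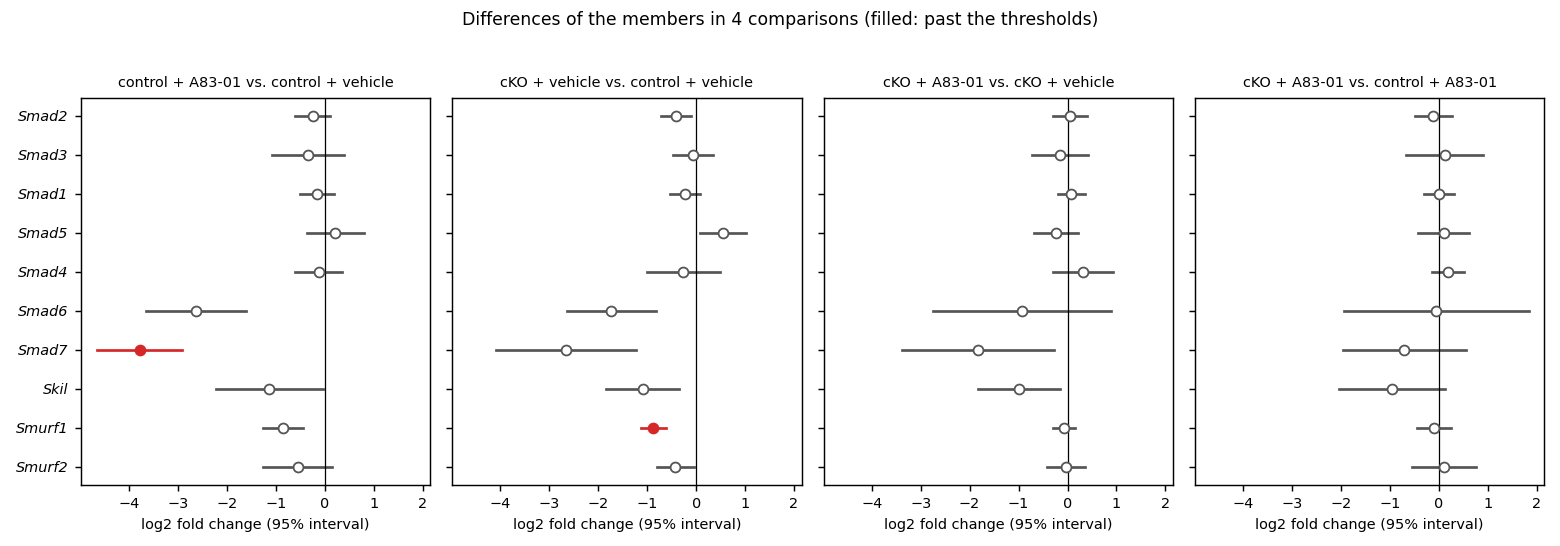
Log2 fold changes of the 10 members (points) with their 95% intervals (lines) in 4 comparisons, on one horizontal scale; red filled points passed the test. *Smad7* with A83-01 in control organoids (−3.79) and *Smurf1* with deletion (−0.88) passed it, and the intervals of most members in the comparisons with *Smad2/3* cKO + A83-01 span 0.

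Levels of different genes were compared per kilobase of exon. *Smad4* was the highest member in every group, at 521 ± 132 normalized counts per kilobase in control + vehicle, followed there by *Smurf1* (461 ± 34.2), *Smad3* (293 ± 19.3), *Smad1* (273 ± 29.5), *Smad2* (133 ± 17.0), *Skil* (87.1 ± 29.3), *Smurf2* (85.4 ± 9.50), *Smad5* (62.3 ± 13.1), *Smad6* (49.4 ± 2.45) and *Smad7* (48.3 ± 9.97). The libraries of neighbours in this order overlapped for *Smad4* and *Smurf1*, *Smad3* and *Smad1*, *Skil* and *Smurf2*, *Smad5* and *Smad6*, and *Smad6* and *Smad7*. *Smad6* and *Smad7* were the lowest members in every group, at 8.61 ± 5.19 and 3.33 ± 0.888 in control + A83-01. *Smad5* ranked above *Skil* and *Smurf2* in the 3 other groups, at 73.1 to 91.0 on average, and its libraries overlapped those of *Smurf2* in the A83-01 groups. With the longest transcript as the length, *Smad1* ranked above *Smad3* in every group.

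**Figure D4:**
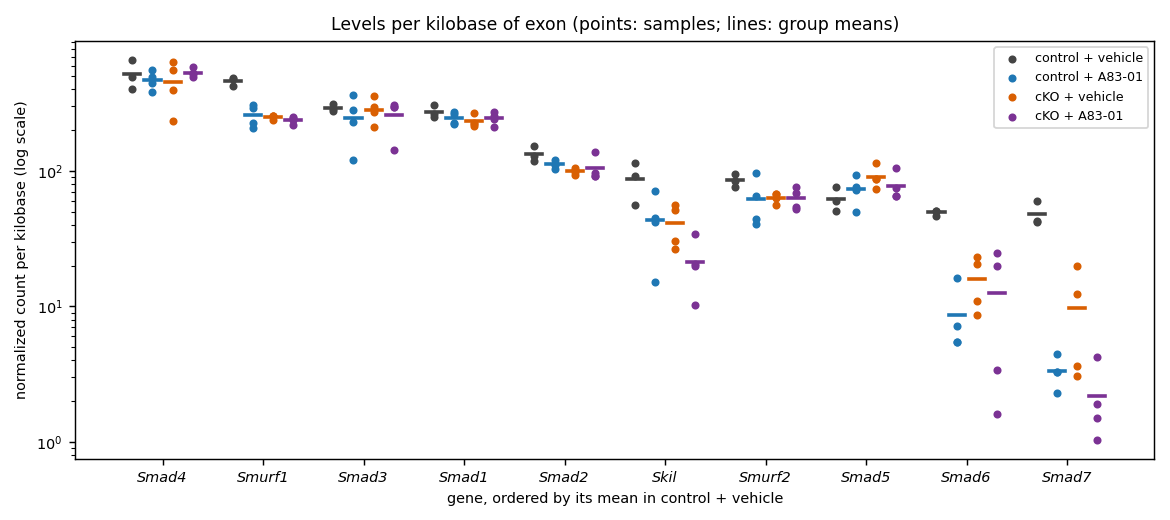
Normalized counts per kilobase of exon (vertical axis, log scale) of the 10 members, ordered by their mean in control + vehicle, with points for single libraries and lines for group means. *Smad4* has the highest mean in every group, and *Smad6* and *Smad7* have the lowest.

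Other regulators of SMADs, most of them intracellular, were counted in the same way from a list of 34 genes. Of these, 33 were in the matrix and 31 were tested. After A83-01 in control organoids 1 of 31 fell and 0 rose, and with deletion 2 of 31 fell and 0 rose, where 1.08% and 3.30% of all genes fell, while 0 of 31 changed in either direction in the other comparisons. *Pmepa1*, whose product sequesters SMAD2 and SMAD3 and which is a target of TGFβ, fell in both. It measured 1327, 903 and 821 normalized counts in control + vehicle, 60.1, 42.1, 28.4 and 55.5 in control + A83-01 (log2 fold change −4.44, SE 0.33, adjusted p = 0.000252) and 32.03, 178, 64.7 and 16.3 in *Smad2/3* cKO (−4.29, SE 0.68, adjusted p = 0.00375). The call with deletion was lost without control + vehicle replicate 1 (adjusted p = 0.0220), control + vehicle replicate 2 (adjusted p = 0.0185) or *Smad2/3* cKO replicate 1 (adjusted p = 0.0106).

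*Pmepa1* in *Smad2/3* cKO + A83-01 was at 2.46, 3.86, 5.20 and 17.2 normalized counts, close to the lowest levels that can be measured and below all control + A83-01 libraries (log2 fold change −2.79, adjusted p = 0.123). *Tgif1*, a homeodomain corepressor of SMAD2 and SMAD3, was at 3773 to 4224 in control + vehicle and fell to 1519 to 1953 in *Smad2/3* cKO (−1.18, SE 0.13, adjusted p = 0.000725). Control organoids with A83-01 were at 1903 to 3549 (−0.66, adjusted p = 0.119). The largest positive differences on the list did not pass the test. *Bambi*, a decoy receptor, was at 38.5 to 52.5 in control + vehicle and 63.6 to 145 in *Smad2/3* cKO (1.01, adjusted p = 0.101), and *Ctdspl*, a phosphatase gene, differed by 0.46 with A83-01 (adjusted p = 0.669).

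The genes most like *Smad7* over the 15 libraries were *Mfsd4a*, *Inava*, *Plekhm1*, *4930402H24Rik* and *Fzd8*. Likeness was the mean absolute difference between standardized log2 values, from 0.257 for *Mfsd4a* to 0.329 for *Fzd8*, with a median of 1.13 over 13048 genes. *Mfsd4a* averaged 555 normalized counts in control + vehicle, 143 in control + A83-01, 205 in *Smad2/3* cKO and 115 in *Smad2/3* cKO + A83-01. The genes most like *Smad6* were *Itpr2*, *Nectin4*, *Exo5*, *Pramef8* and *Shroom4* (0.346 to 0.392). Those most like *Skil* were *Atrx*, *L3mbtl3*, *Arhgef5*, *Naip1* and *Cgnl1* (0.273 to 0.324). Among the members, *Skil* ranked 61 of 13048 in likeness to *Smad6* and 238 in likeness to *Smad7*, and *Smurf1* ranked 247 in likeness to *Smad7*. The inhibitory SMADs stood further apart than these pairs, at a mean absolute difference of 0.5595. *Smad6* ranked 417 in likeness to *Smad7*, and *Smad7* ranked 188 in likeness to *Smad6*. They were closer than *Smurf1* and *Smad6* (0.572), where *Smurf1* ranked 230 in likeness to *Smad6*.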

How the data were processed

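RNA from endometrial organoids was made into cDNA with the SMART-Seq v4 ultra-low input kit and sequenced as paired reads. Per the methods and the submitters' processing notes, the authors assigned reads to GRCm39 with Salmon 1.4.0 and used DESeq2 1.32.0. The authors deposited a normalized signal, namely the estimated count of each gene after division by the size factor of its sample. They are not whole numbers, so methods for raw counts were not used. Whether strand was used in the counting is not given in the sources used here. Taking the 12745 genes detected in each of 15 samples, every sample had a median ratio of 1.01 to the geometric mean.

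Log2 of the normalized count plus 1 was fitted by limma 3.58.1 under R 4.3.3 with a mean-variance trend, each comparison on its own samples, for genes whose mean reached 10, with Benjamini-Hochberg adjustment over all genes tested. Fold changes are on this scale and understate the changes of low genes. All p-values are two-sided. The difference between genotypes was a contrast over 15 samples. Groups followed the sample labels, and the extraction text gives different mice within a genotype. Exon lengths were taken from GENCODE (GRCm38), a build other than that of the authors, and served for lengths only. Promoter windows were from RefSeq (GRCm38.p6). Of the genes overlapping a member in that annotation, none was in the matrix. The alternatives were other pseudocounts (0.1 and 10), filters, normalizations, variance priors, sample weights, samples in the fit, a replicate block, the label number (below 390 or not) as a covariate, thresholds, and leaving out each sample. The script was tested on simulated data.

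The replicate numbers paired control + vehicle with control + A83-01. These samples share their label numbers, and the deviations of the 3 pairs from their group means correlated across genes at r = 0.354 to 0.423. The main fits did not use this pairing. With the replicate block in limma, the log2 fold change with A83-01 was −3.93 for *Smad7* (adjusted p = 0.00280). It was −2.47 for *Smad6* (adjusted p = 0.0176) and −0.76 for *Smurf1* (adjusted p = 0.0251). In the other comparisons at least 1 pair with the same replicate number had an r below 0.1. *Smad2/3* cKO replicate 2 and *Smad2/3* cKO + A83-01 replicate 1 share the label number 369 (r = 0.355), the only number these groups share, and the block by replicate number does not pair them. The genes named are all members, the regulators that passed the test in any comparison, the regulators with the largest rise and fall in the first 2 comparisons, the 5 genes most like *Smad7*, *Smad6* and *Skil*, and cell type markers by list. The members and lists were chosen with earlier results of these data known. *Smad9* and a few of the listed markers were not analysed here.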

Additional observations from a re-analysis of the deposited data

Results flagged for a closer look

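In 3 of the 30 groups of 4 libraries examined, a single library of a member stood apart from the others by more than Dixon's critical value for 4 samples, which chance gives in about 1 in 20 groups. *Smad2* in *Smad2/3* cKO + A83-01 replicate 2 was at 1211 normalized counts, against 804 to 854 in the other 3 libraries. *Smad3* in the same library was at 797, against 1648 to 1689. *Smad6* in control + A83-01 replicate 3 was at 52.3, against 17.6 to 22.9.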

How the results depend on the processing

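With A83-01 in control organoids, 2 members passed the test with a pseudocount of 10 (*Smad6* and *Smad7*), with all 4 groups in the fit (*Smad7* and *Smurf1*) and with the label number as a covariate (*Smad6* and *Smad7*), and 3 passed at an adjusted p below 0.05. Leaving out single libraries gave 0 to 2. With deletion, 2 members passed with all 4 groups in the fit (*Smad7* and *Smurf1*), 4 at an adjusted p below 0.05, 0 with the replicate block (*Smurf1*, adjusted p = 0.0176) and 0 to 2 when single libraries were left out. Of the other regulators, the count of 2 with deletion became 4 at an adjusted p below 0.05, 1 with the replicate block (*Tgif1*) and 1 to 2 without single libraries, and *Pmepa1* also missed the threshold without the trend (adjusted p = 0.0147). The difference between genotypes passed for 1 member, *Smurf1*, at an adjusted p below 0.05. The causes were not tested. In the comparisons between genotypes the replicate numbers do not pair the mice, and the block changed no other call of a member.

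Over all genes, 295 passed with A83-01 in control organoids, and 582 with sample weights, 655 with all 4 groups in the fit, 443 with the label number as a covariate and 49 to 312 without single libraries. With deletion 970 passed, and 211 with the replicate block and 280 to 992 without single libraries. Between the A83-01 groups 3 passed, and 72 with the label number as a covariate and 0 with the block. The difference between genotypes passed for 72 genes, and for 127 with sample weights and 39 to 77 without single libraries.

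The share of *Smad2* and *Smad3* RNA became 47.0%, 43.8%, 46.0% and 44.5% in the 4 groups with the longest transcript as the length, an alternative chosen after the data were seen.

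A member changed direction in a comparison 50 times over all alternatives, never where that member passed the test. With deletion *Smad4* was 0.030 with the replicate block. With A83-01 in *Smad2/3* cKO, *Smurf2* was 0.016 with quantile normalization and 0.021 with the label number as a covariate, *Smad2* was −0.013 with sample weights and *Smad4* −0.17 with the covariate. Between the A83-01 groups, *Smad6* was 0.11 with a pseudocount of 10, 0.32 with sample weights and 0.24 with the covariate, *Smad1* was −0.012 with quantile normalization, −0.0065 with median ratio rescaling and −0.13 with the covariate, *Smad5* was −0.017 with sample weights and *Smurf2* −0.015 with the covariate. Between *Smad2/3* cKO and control + A83-01, *Skil* was −0.032 with quantile normalization and −0.23 with sample weights.

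Leaving out single libraries gave ranges that crossed 0. With A83-01 in control organoids *Smad4* ran from −0.30 to 0.062. With deletion *Smad3* ran from −0.18 to 0.068 and *Smad4* from −0.46 to 0.030. With A83-01 in *Smad2/3* cKO *Smad2* ran from −0.086 to 0.11, *Smad3* from −0.30 to 0.10 and *Smurf2* from −0.12 to 0.058. Between the A83-01 groups *Smad1* ran from −0.050 to 0.072, *Smad3* from −0.19 to 0.39, *Smad5* from −0.076 to 0.23, *Smad6* from −0.62 to 0.63 and *Smurf2* from −0.066 to 0.35. Between *Smad2/3* cKO and control + A83-01 *Smad3* ran from −0.029 to 0.50, *Smad4* from −0.33 to 0.16, *Smurf1* from −0.12 to 0.062, *Smurf2* from −0.043 to 0.38 and *Skil* from −0.39 to 0.34. The difference between genotypes ran from −0.12 to 0.45 for *Smad3* and from −0.30 to 0.44 for *Skil*. Groups of 3 and 4 limit what can pass an adjusted p of 0.01, and *Smad6* and *Smad7* rest on few reads outside control + vehicle.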
